A study of Nicotiana tabacum with 54 samples.

Results

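Of the 69500 gene models of tobacco (*Nicotiana tabacum*) in the expression tables, 55 were on in at least 1 plant material and off in at least 1 other in leaf, stalk and root alike. A gene was counted as on in a material where its mean of 3 libraries was at least 3 FPKM (fragments per kilobase of transcript, scaled to the number of mapped fragments in the library) in all 3 tissues. It was counted as off where that mean was at most 0.3 FPKM in all 3 tissues, and as between otherwise. The 55 genes were thus selected on these mean FPKM values, and the levels that made them members are a description with no test. The 59 identifiers of the glutathione S-transferase family that the study examined were set aside, and 0 of them would have met the rule.

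The 54 libraries of total RNA came from 6 materials, 3 tissues and 3 libraries for each material and tissue. The materials are labelled HxB, VxG88, Hongda, Basma, Va116 and GDH88, and all plants carry the label after topping, which is the removal of the flowering shoot. The study's methods describe 3 plants per replicate and list partly other material names, and neither they nor the labels say how HxB and VxG88 were made. Below, Hongda and Basma are called the namesakes of HxB, and Va116 and GDH88 those of VxG88, from the letters of the names alone. Each group was a whole organ, so fewer cells of a type and less RNA per cell cannot be told apart in any value.

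Tobacco is an allotetraploid: its genome joins those of ancestors related to *Nicotiana sylvestris* and *Nicotiana tomentosiformis*, and many genes exist as similar copies. Cultivated lines of a plant species can differ in whether a gene is present, in its promoter and in its sequence, and a table made against one set of gene models can show any of these as a level near 0 in some lines and not in others. Which of them applies to the genes below was not tested. The deposited identifiers (Nitab4.5) are paired with no gene names or functions in the sources used here, so the genes below are given by identifier and the organ labels could not be checked against marker genes.

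The values summed to between 768375 and 832327 per library. Sums this even can also arise in TPM, another unit scaled to length and library, and the tables do not name their unit, so it is uncertain whether the values called FPKM here, thresholds included, are FPKM or TPM. The tables hold FPKM values and no counts, so the depth behind a value is unknown, and a value of 0 sets no limit on the level. The labels of the materials were checked per library with genes that met the rule in the other 2 tissues (82 genes for leaf, 74 for stalk and 86 for root). Each library was correlated over these genes with the means of the 6 materials in those other tissues. Of the 54 libraries, 49 were closest to the material on their label, with Pearson's r of 0.50 to 0.90. The other 5 were closer to another material. The library labelled leaf VxG88 2 had r = 0.44 with VxG88 and 0.71 with GDH88, and stalk VxG88 1 had r = 0.30 with VxG88 and 0.80 with HxB. Stalk GDH88 1 had r = 0.42 with GDH88 and 0.52 with Basma, root GDH88 2 had r = 0.06 with GDH88 and 0.69 with VxG88, and root Basma 1 had r = 0.35 with Basma and 0.52 with HxB. Stalk Basma 1 was kept among the 49 with the lowest r, 0.50 with Basma, against 0.78 and 0.77 for stalk Basma 2 and 3. All these r values are across genes, which share libraries and are not replicates.

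**Figure D1:**
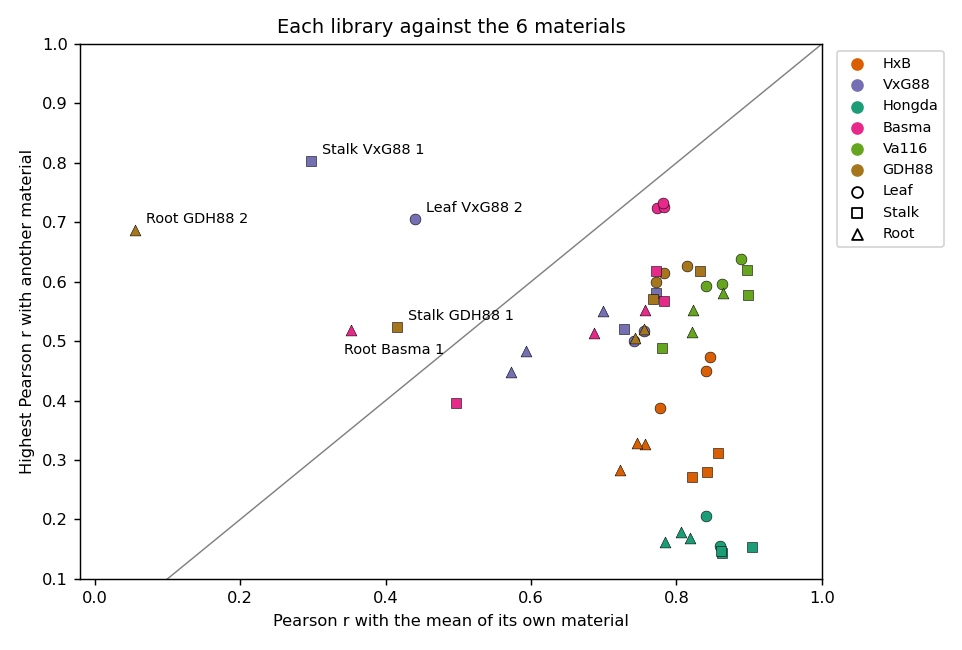
Pearson correlation of each of the 54 libraries with the mean of its own material (x axis) and the highest correlation with any other material (y axis), over genes that met the rule in the other 2 tissues. The 5 named libraries lie above the diagonal, and the other 49 lie below it.

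The same 5 libraries stood alone most often within their group over the 55 genes. All 55 are among the genes of the label check in each tissue, so this is a description and no separate check. A library was counted as alone at a gene when it had at least 3 FPKM and its 2 fellows at most 0.3, or the reverse. Root GDH88 2 was alone at 20 genes, stalk VxG88 1 at 14, stalk GDH88 1 at 11, leaf VxG88 2 at 10 and root Basma 1 at 8. Stalk Basma 1 followed with 7, and no other library had more than 2. Nitab4.5_0003151g0070 shows the kind of value involved. It had 10.83 FPKM in leaf VxG88 2 and 0.0 in the other 8 VxG88 libraries, and it had 0.0 in root GDH88 2 against 17.57 to 102.64 FPKM in the other 8 GDH88 libraries. Most results are therefore given with all libraries and without the 5, whose part in each result was otherwise not tested. The 5 were left out for their values over genes that include the 55, so what changes without them is in part fixed by that choice. The rule took 77 genes without the 5 libraries, which were the 55 and 22 more.

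**Figure D2:**
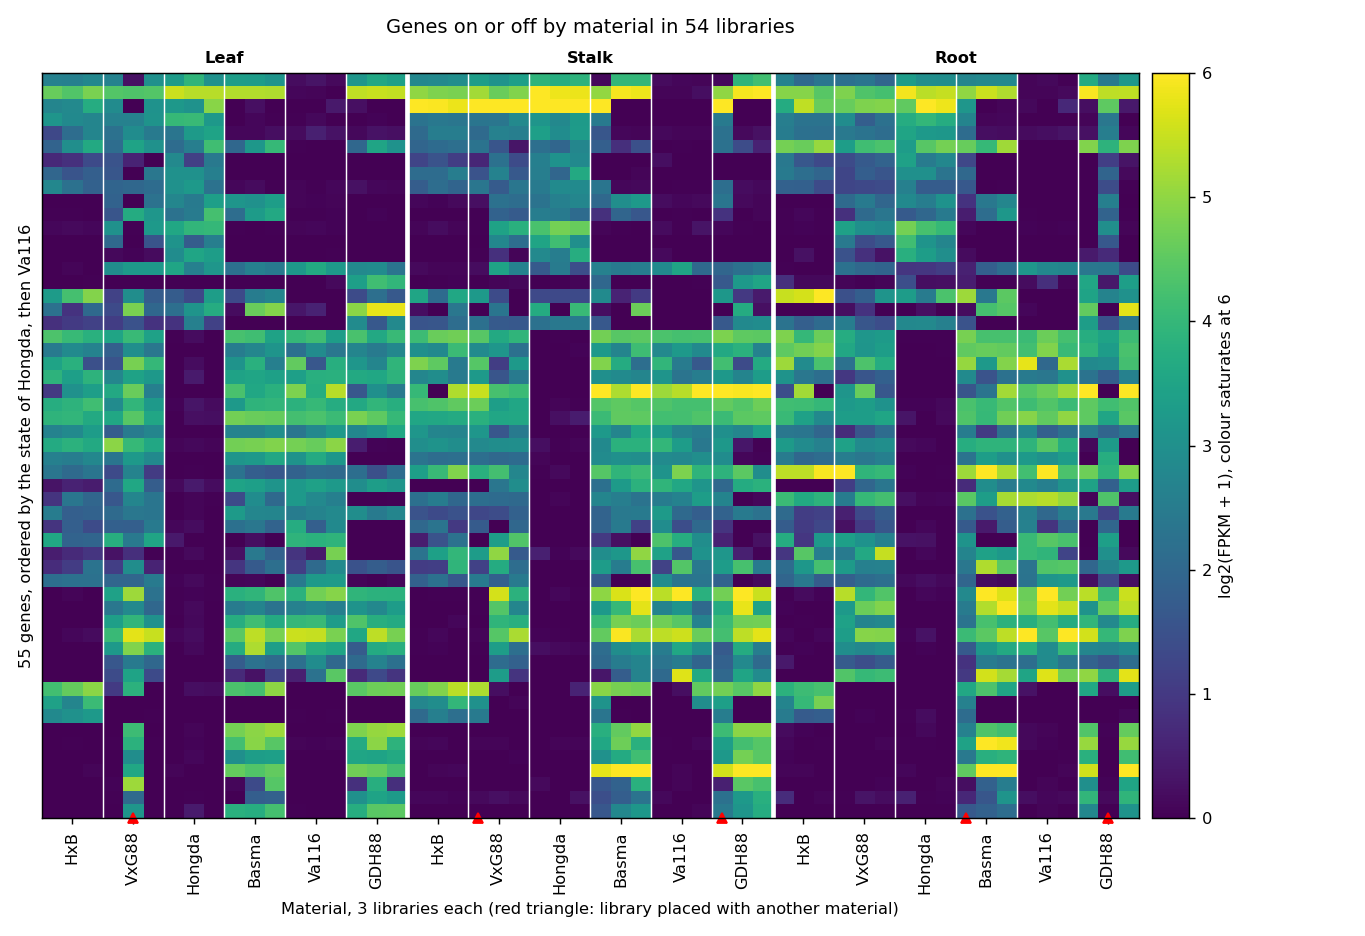
Log2(FPKM + 1) of the 55 genes (rows) in the 54 libraries (columns, 3 per material and tissue), with genes ordered by the state of Hongda and then of Va116. The Hongda columns are dark over the lower 36 rows, the Va116 columns are dark over most rows where Hongda is bright, and the 5 libraries marked by red triangles differ from their fellows.

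Over the 55 genes, values in materials counted as on had a median of 9.65 FPKM and reached 305.92 FPKM, and 14 of these 1287 values were 0. Values in materials counted as off had a median of 0.0 and a maximum of 0.7 FPKM, and 484 of the 765 (63.3%) were exactly 0. The gene just inside the threshold for on was Nitab4.5_0000016g0610 at 3.01 FPKM and the one just outside it Nitab4.5_0001817g0040 at 2.77 FPKM. For off, Nitab4.5_0006949g0030 lay just inside at 0.263 FPKM and Nitab4.5_0004610g0020 just outside at 0.31 FPKM. In 28 of the 55 genes every single library of at least 1 on material and of at least 1 off material was on its side of the thresholds.

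The off state was unevenly spread over the materials. HxB was on in 21 of the 55 genes, off in 20 and between in 14, and VxG88 was on in 25, off in 1 and between in 29. Hongda was on in 14, off in 36 and between in 5, and Va116 was on in 27, off in 25 and between in 3. Basma was on in 27, off in 3 and between in 25, and GDH88 was on in 29, off in 0 and between in 26. In 53 of the 55 genes Hongda or Va116 was off. Where a material was between, libraries of 1 tissue often lay on both sides of the thresholds: this held for 18 of the 29 VxG88 genes, 13 of the 26 GDH88 genes and 12 of the 25 Basma genes, but for 1 of the 14 HxB genes. Without the 5 libraries GDH88 was off in 35 of the 77 genes, VxG88 in 14 and Basma in 7.

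The 55 genes fell into 30 patterns over the 6 materials, 18 of them held by 1 gene. The most frequent had 6 genes, which were off in Hongda and on in the other 5 materials. Another 5 genes were off in HxB and Hongda and on in the other 4, and 4 genes were on in Basma and GDH88, off in HxB, Hongda and Va116, and between in VxG88. The most frequent pattern without the 5 libraries was another one, off in GDH88 alone, with 8 of the 77 genes, and 6 were off in Hongda alone. No gene was on in 1 material with the other 5 off in either set. Nitab4.5_0001439g0090 had the highest mean among the genes off in Hongda alone. It had 0.0 FPKM in all 9 Hongda libraries, and its means over 9 libraries were 11.9 ± 14.8 FPKM in HxB, 16.8 ± 12.8 in VxG88, 33.6 ± 34.9 in Basma, 40.2 ± 35.1 in Va116 and 44.5 ± 40 in GDH88 (SD over 9 libraries of 3 tissues). These SDs include differences between tissues, so they cannot show whether the 5 materials differ. HxB had the lowest of the 5 means and GDH88 the highest, but not within every tissue. Leaf means were 5.79 ± 4.27 FPKM for HxB and 4.49 ± 2.4 for GDH88 (SD over 3 libraries). The stalk means of HxB and GDH88 were 17.7 ± 19.1 and 76.1 ± 16.7 FPKM, and their root means 12.2 ± 19.6 and 52.8 ± 46.1 FPKM.

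Whether material differences chosen in some tissues recur in another was tested with values the choice had not used. The rule was applied to 2 tissues, and the genes it chose were tested in the third with limma's F test among the 6 materials on log2(FPKM + 1), with Benjamini-Hochberg adjustment over all genes tested. In leaf 56 of the 82 genes chosen in stalk and root passed an adjusted p of 0.05 (68.3%), against 1.6% of all genes tested there. In stalk 35 of the 74 chosen passed (47.3%), against 0.403%, and in root 32 of the 86 chosen passed (37.2%), against 0.307%. Of the chosen genes 74, 72 and 78 passed the filter on low values in leaf, stalk and root, and the others counted as not called. Chosen and tested again without the 5 libraries, 82 of 115 leaf genes passed, as did 63 of 110 for stalk and 74 of 105 for root, against 1.53%, 0.623% and 0.723% of all genes. The 5 libraries were left out for their values over such genes, so the higher counts are in part fixed by that choice. With 1 of the 3 replicate numbers left out, and so 2 libraries a group, between 20 and 39 leaf genes passed, between 9 and 37 stalk genes and between 3 and 22 root genes, the lowest count in each tissue being that without replicate 3.

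With all libraries Hongda and Va116 were opposite, one on and the other off, in 40 genes, the most of any pair of materials. They were also opposite in 40 of the 77 genes taken without the 5 libraries, but Hongda and GDH88 were then opposite in 52. Of the 55 genes 14 were on in Hongda and off in Va116, 26 were off in Hongda and on in Va116, 8 were off in both and 0 were on in both. The levels of HxB and VxG88 in the 14 and the 26 genes were not used to choose them. VxG88 lay near the middle in both sets. Without the 5 libraries its mean over the tissues was 5.73% to 68.6% of that of Hongda in the 14 genes (median 47.8%), with 13 of the 14 between 25% and 75%. In the 26 genes it was 30.1% to 141% of that of Va116 (median 55.4%), with 25 of the 26 between 25% and 75%. With all libraries the medians were 46.8% and 59.1%, and 12 of 14 and 24 of 26 genes lay in that range. In the 8 genes off in both Hongda and Va116, VxG88 was off in all 8 without the 5 libraries. The 5 libraries were left out for their values over genes that include these 8, so that count is in part fixed by the choice. With all libraries VxG88 was between in the 8, where leaf VxG88 2 had at least 1 FPKM in 7 of the 8 genes, stalk VxG88 1 in 1 and the other 7 VxG88 libraries in 0.

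HxB was spread differently over the same genes. In the 14 genes on in Hongda and off in Va116, HxB stood under 5% of Hongda in 5, between 25% and 75% in 8 and above that in 1, with a median of 41.0%. In the 26 genes on in Va116 and off in Hongda, it stood under 5% of Va116 in 8, between 25% and 75% in 11 and at 75% or more in 7, with a median of 49.0%. With the 5 libraries left out, GDH88 stood under 5% of Hongda in 11 of the 14 genes and at 75% or more in the other 3. In the 26 genes GDH88 was under 5% of Va116 in 7 and Basma in 2, with medians of 88.8% for GDH88 and 100% for Basma. With all libraries 4 of the 14 genes were under 5% in GDH88, 7 from 5% to 25% and 3 at 75% or more. Of the 26 genes 0 were then under 5% in GDH88 or Basma, with medians of 76.1% and 95.8%.

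**Figure D3:**
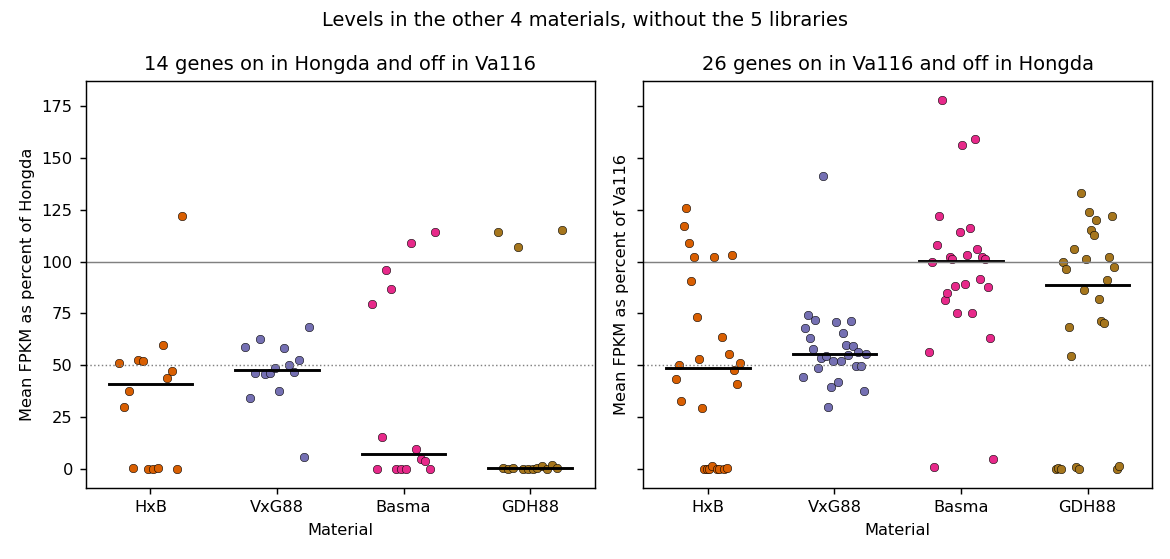
Mean FPKM over the 3 tissues in HxB, VxG88, Basma and GDH88 as a percent of the on material, for 14 genes on in Hongda and off in Va116 (left) and 26 genes on in Va116 and off in Hongda (right), without the 5 libraries. Each point is a gene and black bars are medians. VxG88 points gather near the dotted line at 50% in both panels, with medians of 47.8% and 55.4%, while HxB, Basma and GDH88 points split into a group near 0 and a group of higher values.

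Nitab4.5_0001737g0010, 1 of the 14 genes, had the highest mean among the genes off in Va116 alone. It is 1 of the 3 genes with GDH88 at 75% or more of Hongda (107% without the 5 libraries), not of the 11 under 5%. A middle level between Va116 and Hongda thus cannot be told apart here from one between Va116 and GDH88. In leaf it had 23.29, 19.67 and 26.51 FPKM in HxB and 19.95, 19.28 and 19.93 FPKM in VxG88. Against these, leaf Hongda had 44.94, 39.84 and 39.73 FPKM, leaf Basma 38.58, 38.61 and 37.78, leaf GDH88 42.25, 44.08 and 42.37, and leaf Va116 0.08, 0.05 and 0.0. In leaf neither HxB nor VxG88 overlapped with any namesake. Over all 9 libraries its means were 26.0 ± 3.86 FPKM in HxB, 23.5 ± 5.78 in VxG88, 49.4 ± 9.48 in Hongda, 41.8 ± 9.99 in Basma, 48.1 ± 12.2 in GDH88 and 0.07 ± 0.0474 in Va116 (SD over libraries of 3 tissues).

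Nitab4.5_0004508g0010 had the highest mean among the 3 genes on in Hongda and off in Basma. In root it had 0.02, 0.04 and 0.02 FPKM in HxB, 9.79, 6.95 and 6.18 FPKM in VxG88, and 25.65, 18.1 and 15.32 FPKM in Hongda. HxB, Basma and Va116 were at or below 0.25 FPKM in every library of every tissue. In GDH88 8 libraries were at or below 0.07 FPKM, while root GDH88 2 had 6.86 FPKM, a value within the root VxG88 range. In VxG88 leaf library 2 (0.03 FPKM) and stalk library 1 (0.02 FPKM) were low, and the other 7 had 6.18 to 12.96 FPKM. The next gene of this set, Nitab4.5_0005995g0020, was at 0.0 FPKM in all HxB, Basma and Va116 libraries and had 1.61 to 5.81 FPKM in the same 7 VxG88 libraries, against 2.37 to 16.92 FPKM in Hongda.

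For HxB the comparison with its namesakes turned on 3 groups of genes. In the 23 genes on in Basma and off in Hongda, HxB was on in 11, off in 10 and between in 2. Its mean stood under 5% of Basma in 11 of the 23, between 25% and 75% in 5 and at 75% or more in 7, and 0 genes lay from 5% to 25%. In the 3 genes on in Hongda and off in Basma, HxB was off in all 3, at most at 0.354% of Hongda. This set depended on the libraries used. With 1 replicate number left out it had 3 to 14 genes, 0 to 7 of them on in HxB. Medians of 3 libraries, or leaving out stalk Basma 1 beside the 5, also gave larger sets with genes on in HxB (given below). Where both namesakes were on (3 genes), HxB was on in 2 and off in 1. That 1 gene, Nitab4.5_0006141g0010, had 0.0 FPKM in the 6 leaf and root libraries of HxB and 0.07, 0.04 and 0.11 FPKM in stalk. Its Hongda libraries had 3.9 to 9.39 FPKM and its Basma libraries 0.84 to 9.08 FPKM, so HxB did not overlap with either. Without the 5 libraries HxB was off in 3 and between in 4 of 7 genes on in Hongda and off in Basma, and on in 9 and off in 12 of 23 genes on in Basma and off in Hongda.

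The 2 genes of the highest mean among the 23 were both off in HxB. Nitab4.5_0003151g0070 had at most 0.07 FPKM in the 9 HxB libraries and at most 0.07 FPKM in those of Hongda, against 19.71 to 144.18 FPKM in Basma. Nitab4.5_0001751g0060 had at most 0.13 FPKM in HxB and 0.08 FPKM in Hongda, against 6.08 to 88.41 FPKM in Basma. The genes of the longest runs of neighbouring members behaved otherwise. Nitab4.5_0000469g0120 had 18.93, 15.51 and 13.01 FPKM in leaf HxB, against 18.22, 16.95 and 10.04 FPKM in leaf Basma and 0.02, 0.14 and 0.0 FPKM in leaf Hongda, and leaf HxB and leaf Basma overlapped.

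HxB and VxG88 were then compared with each other in these subsets, since neither material chose them. The test was limma's contrast of HxB minus VxG88 within a tissue, adjusted over all genes tested. Among the 23 genes on in Basma and off in Hongda, 7 were lower and 0 higher in leaf HxB than in leaf VxG88, against 0.192% and 0.1% of all genes. In stalk 0 of the 23 were called, as were 0% of all genes in either direction, and at an unadjusted p under 0.05 limma counted 7 lower and 2 higher, against 1.29% and 0.678% of all genes. In root 3 were lower and 1 higher, against 0.0182% and 0.0104% of all genes. With any 1 replicate number left out, these calls came to 2 or 3 genes for leaf and to 0 or 1 for either other tissue, and without replicate 2 one call in leaf and the only call in root were of genes higher in HxB. Of the 7 genes lower in leaf, 3 lie on scaffold 0001751 and 2 on scaffold 0002587, so they are not separate observations of place. The largest difference was that of Nitab4.5_0002587g0080, with a mean of 0.0667 FPKM in leaf HxB and 37.4 FPKM in leaf VxG88, and a log2 difference of -5.01 ± 0.45 (SE, adjusted p = 5.18e-05 in limma) on the log2(FPKM + 1) scale. Nitab4.5_0000146g0130 was the gene higher in root, with a mean of 16 FPKM in HxB and 0.0 in VxG88 and a log2 difference of 4.07 ± 0.60 (SE, limma adjusted p = 0.0199).

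The 23 genes had median log2 differences of -0.98 for leaf, 0.00 for stalk and 0.02 for root, beside -0.05, -0.06 and 0.17 over all genes tested. In the 3 genes on in Hongda and off in Basma and in the 11 on in GDH88 and off in Va116, limma called 0 in each tissue. With no adjustment, at p under 0.05, the first set had 2, 2 and 3 genes lower in leaf, stalk and root, against 2.27%, 1.29% and 1.2% of all genes. It had 0 higher in each, against 1.69%, 0.678% and 1.43% of all genes, and the second set had 0 in either direction in each. No gene was on in Va116 and off in GDH88 with all libraries. Chosen and fitted again without the 5 libraries, the genes on in Basma and off in Hongda had 7, 5 and 7 lower and 1, 0 and 1 higher in leaf, stalk and root. All genes tested then had 0.112%, 0.0363% and 0.0556% lower and 0.0753%, 0.00279% and 0.0529% higher. The median log2 differences of the 23 genes so chosen were -0.02, 0.00 and 0.00, beside -0.04, -0.08 and 0.16 over all genes. The leaf median of -0.98 thus depended on the libraries used. The HxB minus VxG88 difference was also compared between tissues in 1 fit of the 54 libraries, and limma called 0 of the 33 genes of the 4 subsets in any pair of tissues. Of all genes in that fit 0.0163% were called for stalk minus leaf, 0.0163% for root minus leaf and 0.00934% for root minus stalk. At an unadjusted p under 0.05 the 33 genes had 1 call for stalk minus leaf (1.9% of all genes), 3 for root minus leaf (2.85%) and 0 for root minus stalk (3.21%).

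For VxG88 the counts depended on the 5 libraries, 2 of which carry its label and 2 that of GDH88. With all libraries VxG88 was on in 12 and between in 4 of the 16 genes on in both Va116 and GDH88. In the 11 genes on in GDH88 and off in Va116, it was on in 2 and between in 9, at 2.56% to 58.6% of GDH88 (median 8.58%). Without the 5 libraries 15 genes were on in GDH88 and off in Va116, and VxG88 was on in 2, off in 9 and between in 4, with a median of 0.328% of GDH88. A further 19 genes were then on in Va116 and off in GDH88, and VxG88 was on in 15 and between in 4, at 37.8% to 162% of Va116 (median 107%). Hongda was on in 11 of these 19 genes. In the 1 gene where VxG88 was off with all libraries, Nitab4.5_0005779g0010, VxG88 had at most 0.09 FPKM in any library, and 8 GDH88 libraries had 2.22 to 16.99 FPKM while root GDH88 2 had 0.3 FPKM. VxG88 was the only material in which this gene was off, so its VxG88 level made it a member.

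The nearness of each library to single materials and to midpoints of 2 materials was measured over the 50 genes that met the rule on Hongda, Basma, Va116 and GDH88 alone, so that no value of HxB or VxG88 chose them. Hongda and Va116 were opposite in 40 of these genes. Va116 and GDH88 were opposite in 11, with 0 on in Va116 and off in GDH88. The set thus weighs the first contrast most, and how this bears on the distances was not tested. The measure was the mean absolute difference in log2(FPKM + 1), with a midpoint taken as the average of 2 mean FPKM values of the same tissue, and it was chosen after values had been seen. The 9 HxB libraries lay 0.21 to 0.455 from the other HxB libraries and 1.45 to 1.66 from the midpoint of Hongda and Basma. They were at least 0.957 from every other material and every midpoint without HxB. Of these, the midpoint of Hongda and Va116 was closest for 4 HxB libraries and VxG88 for 5. The 9 HxB libraries lay 1.07 to 1.27 from that midpoint. Among materials and midpoints without VxG88, 7 of the 9 VxG88 libraries were closest to the same midpoint of Hongda and Va116, but at 0.341 to 0.556. Those 7 lay 1.2 to 1.44 from the midpoint of Va116 and GDH88. Leaf VxG88 2 was closest to the midpoint of Va116 and GDH88 (0.693) and stalk VxG88 1 to HxB (0.295). Root GDH88 2 was 0.404 from VxG88 and 2.1 from the other root GDH88 libraries. With means taken without the 5 libraries, over 71 genes, the same 7 VxG88 libraries were closest to the midpoint of Hongda and Va116, at 0.351 to 0.565. Hongda and Va116 were opposite in 40 of these 71 genes and Va116 and GDH88 in 34.

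**Figure D4:**
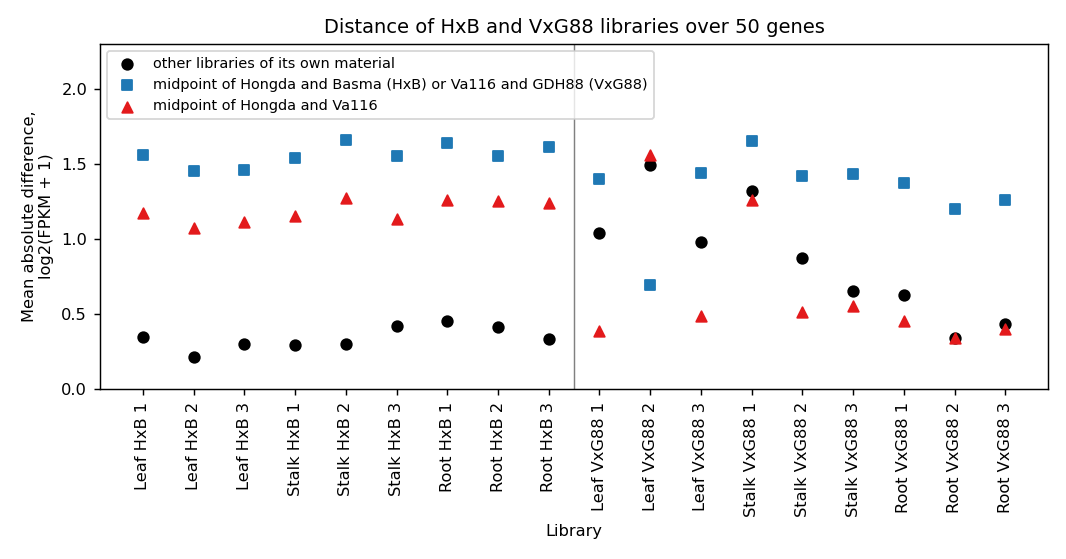
Mean absolute difference in log2(FPKM + 1) over 50 genes between each HxB or VxG88 library (x axis) and the other libraries of its material (circles), the midpoint of its namesakes (squares) and the midpoint of Hongda and Va116 (triangles). For 7 VxG88 libraries the triangle lies at 0.341 to 0.556 and the square at 1.2 to 1.44, while leaf VxG88 2 has its square lowest. HxB libraries lie nearest to one another.

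Basma and GDH88 compared differently with and without the 5 libraries. With all libraries 22 of the 55 genes were on in both, and 0 were on in GDH88 and off in Basma. As GDH88 was off in 0 genes, none could be on in Basma and off in GDH88. Of the 77 genes taken without the 5 libraries 23 were on in both, 1 was on in GDH88 and off in Basma, and 14 were on in Basma and off in GDH88. In the 8 genes off in both Hongda and Va116, HxB was off in 7 and on in 1. The 1 gene was Nitab4.5_0000305g0130, with a mean of 4.8 FPKM in HxB over 9 libraries, 0.0189 FPKM in Hongda and 0.00556 FPKM in Va116. HxB was the only material in which this gene was on, so its HxB level made it a member. Among the other 7, Nitab4.5_0003151g0070 had 22.76, 19.71 and 22.6 FPKM in leaf Basma and 24.8, 22.78 and 17.57 FPKM in leaf GDH88, and these ranges overlapped.

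By the rule every member was on in all 3 tissues of a material, but its level could still differ between them. Averaged over the on materials, leaf was the highest tissue for 19 genes, stalk for 19 and root for 17. The ratio of the highest to the lowest tissue mean was 1.03 to 13.3, with a median of 1.93.

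The members were not all scattered singly over the genome scaffolds, as read from the identifiers, whose middle digits number a scaffold and whose last digits rise in steps of 10 along it. The 55 genes lay on 44 of the 12822 scaffolds, and 7 scaffolds held 2 or more members, 18 members together. Scaffold 0001751 held 4 members among its 17 gene models, 0006949 held 3 among 6 and 0000469 held 3 among 26. A member identifier directly followed or preceded another in 10 of the 55 genes (18.2%), in 4 runs. Of the 22870 genes on in at least 1 material 29 stood next to a member (0.127%). Genome positions were not used here, so the distances between neighbours are unknown.

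The longest runs had 3 genes. On scaffold 0006949, the 3 genes were on in Hongda and off in Va116, and the middle one, Nitab4.5_0006949g0020, had 7.7, 6.15 and 5.64 FPKM in leaf HxB, 5.18, 5.23 and 7.47 FPKM in leaf VxG88, and 15.11, 15.77 and 8.16 FPKM in leaf Hongda. Leaf Va116 had 0.02, 0.1 and 0.0 FPKM. Over 9 libraries the means of Nitab4.5_0006949g0010, Nitab4.5_0006949g0020 and Nitab4.5_0006949g0030 were 3.08, 4.93 and 3.93 FPKM in HxB, 2.69, 4.99 and 4.42 FPKM in VxG88 and 5.15, 11.2 and 8.28 FPKM in Hongda. On scaffold 0000469 the run was off in Hongda, at means of 0.0289, 0.00778 and 0.0256 FPKM for Nitab4.5_0000469g0120, Nitab4.5_0000469g0130 and Nitab4.5_0000469g0140. The same genes had 19.9, 13.4 and 23.1 FPKM in HxB.

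**Figure D5:**
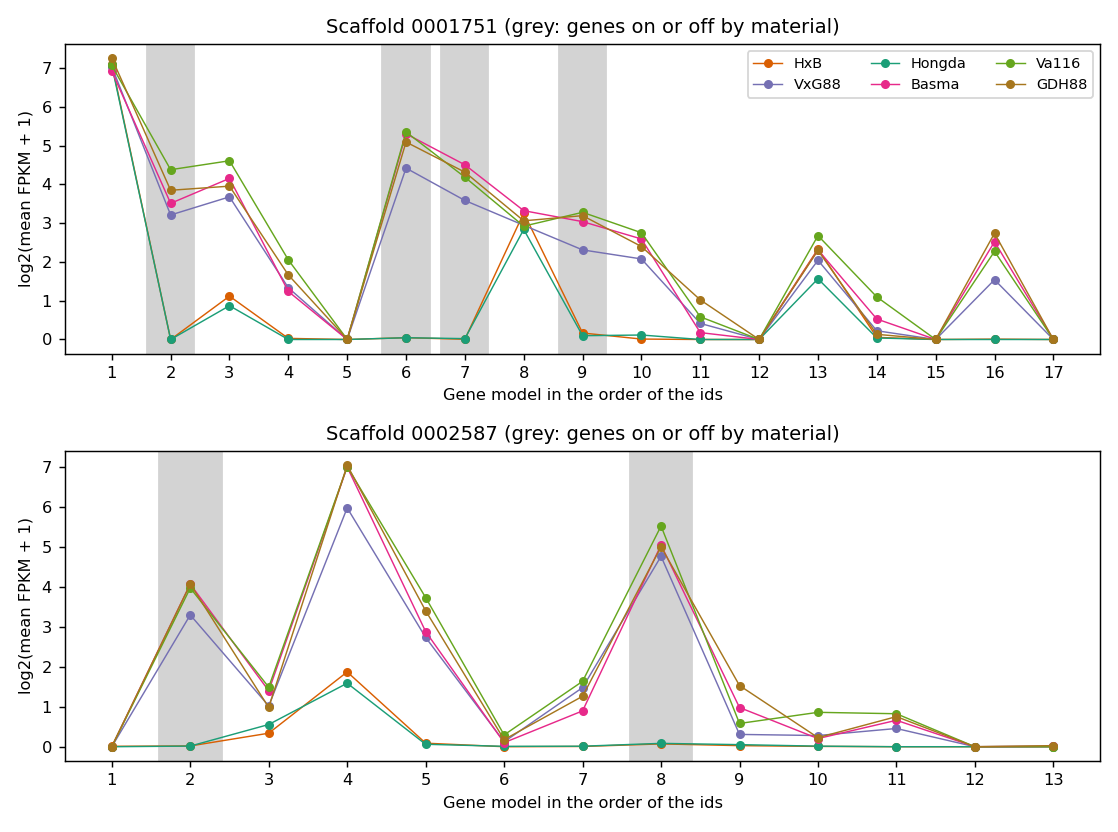
Log2(mean FPKM + 1) over 9 libraries in each of the 6 materials for the gene models of scaffold 0001751 (17 models) and scaffold 0002587 (13 models), in the order of their identifiers. Grey bands mark members (4 and 2). These scaffolds were picked for holding 2 or more members, all low in HxB and Hongda and high in Va116 by their 9-library means. The limits were at most 0.3 FPKM and at least 3 FPKM, so that part of the split was fixed by the choice. At the members HxB and Hongda lie at or near 0 and the other 4 materials do not, and several models that are no members show a like split. One of these, Nitab4.5_0002587g0040, lies above both members of its scaffold, with means of 2.66 FPKM in HxB and 2.01 in Hongda, against 62.0 in VxG88 and 127 in Basma.

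Genes beside the members that did not meet the rule were tested as well, because their values had not chosen them. There were 79 such adjacent identifiers, 19 of them on in at least 1 material, and 3 members had no adjacent identifier in the tables. In leaf 31 of the 79 passed the filter on low values and 10 were called by limma's F test among the materials, against the 1.6% of all genes tested. In stalk 36 passed the filter and 5 were called, against 0.403%, and in root 38 passed and 8 were called, against 0.307%. Nitab4.5_0001992g0130, beside a gene off in Hongda alone, was called in all 3 tissues, with limma adjusted p-values of 5.25e-07 (leaf), 2.51e-08 (stalk) and 7.91e-08 (root). Its means over 9 libraries were 244 FPKM in HxB, 142 in VxG88, 0.284 in Hongda, 182 in Basma, 210 in Va116 and 218 in GDH88, and its Hongda mean exceeded 0.3 FPKM in at least 1 tissue. Nitab4.5_0004610g0020, which just missed the threshold for off, had 0.17 FPKM in HxB and 0.21 FPKM in Hongda, against 45.2 FPKM in VxG88, 58.3 in Basma, 80.9 in Va116 and 49.6 in GDH88. Its limma adjusted p-values were 0.00142 for leaf, 0.33 for stalk and 0.00299 for root. These 2 neighbours were chosen after their values were seen. How reads of near-identical copies were divided between gene models was not stated, so neighbouring genes of like sequence may share reads.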

How the data were processed

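The authors deposited 1 table of FPKM values per tissue for 69500 gene models, and per the labels the reads went through HISAT2, StringTie and RSEM, with no versions. The unit rests on the study's figure legends and could also be TPM, and no genome build was named. No further scaling was applied to the deposited FPKM values, which were averaged over the 3 columns of a material and tissue. Column numbers 1 to 3 are not tied to plants, so p-values measure the spread between these libraries. In leaf, stalk and root separately, limma 3.58.1 in R 4.3.3 was fitted to log2(FPKM + 1) with material as the term and a trend of the variance. A gene entered a fit with 1 FPKM or more in 3 libraries, and two-sided p-values were adjusted by Benjamini-Hochberg over them at 0.05. A difference on this scale understates the change of low genes. The fits were also run on simulated libraries with independent noise. These held no library that resembled another material and no shared deviations by column number, so that run cannot show how either affects the fits. Counts and distances used Python 3.11.15 with pandas 2.3.3 and NumPy 2.4.6, and plots matplotlib 3.10.9.

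The members, subsets and tests were chosen with earlier results of these data known. The genes named were the 2 of the highest on-material mean in each subset of namesakes, the highest off in 1 material alone or in HxB against both namesakes, the longest runs and the genes next to the thresholds. Others named were chosen after their values were seen: Nitab4.5_0005779g0010, Nitab4.5_0000305g0130, the 2 genes with their HxB minus VxG88 statistics, the 2 neighbours and Nitab4.5_0002587g0040. The alternatives were other thresholds, medians, pseudocounts of 0.1 and 0.01, filters, scalings, a replicate block, 1 fit of all 54 libraries, each replicate left out and the 5 libraries left out. Of the ids, 0 matched the RefSeq gene table, so no names, sequences or pathway lists were used. No 2 libraries had identical values.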

Additional observations from a re-analysis of the deposited data

How the results depend on the processing

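Upper-quartile scaling, quantile normalization, a filter of 3 FPKM or none, limma without the trend and an upper limit of 0.5 FPKM for off left every count within 1.5 times its value, for the results each was run on. Taking the median of 3 libraries gave 15 genes on in Hongda and off in Basma (6 on in HxB), 16 on in Va116 and off in GDH88 (14 on in VxG88), 4 genes on in VxG88 among those on in GDH88 and off in Va116, and 17 members beside another. With every library on its side there were 28 members, 14 on in Basma and off in Hongda (5 on in HxB) and 1 on in GDH88 and off in Va116 (1 on in VxG88). With on at 2 FPKM, 37 genes were on in Basma and off in Hongda and 18 on in GDH88 and off in Va116. With on at 5 FPKM the last count was 7, with 1 on in VxG88. With off at 0.1 FPKM, HxB was on in 7 of the genes on in Basma and off in Hongda, and VxG88 in 1 of those on in GDH88 and off in Va116.

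Without the 5 libraries there were 7 genes on in Hongda and off in Basma and 19 on in Va116 and off in GDH88, with 15 of these on in VxG88. With stalk Basma 1 left out too, which was chosen after seeing the data, there were 86 members, 19 on in Hongda and off in Basma (8 on in HxB) and 19 on in Va116 and off in GDH88 (15 on in VxG88). With the genes kept and only the fits made without the 5 libraries, HxB against VxG88 had 2 leaf calls, 2 stalk calls and 1 root call among the 3 genes on in Hongda and off in Basma, 5 in stalk and 8 in root among the 23 on in Basma and off in Hongda, and the root F test called 64 of 86 genes. With the genes chosen again as well, an alternative added after seeing the data, these became 2, 2 and 1 of 7 genes and 5 and 8 of 23. There was then 1 call in leaf of 19 genes on in Va116 and off in GDH88, 1 in leaf and 1 in root of 15 on in GDH88 and off in Va116, the F test called 63 genes in stalk and 74 in root, and 17 adjacent ids were called in leaf.

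A fit of all 54 libraries called 54 genes in stalk and 57 in root by F test, 11 adjacent ids in stalk and 13 in root, and for HxB against VxG88 in root 7 of the 23 genes on in Basma and off in Hongda and 1 of the 3 on in Hongda and off in Basma. With pseudocounts of 0.1 and 0.01 FPKM the root count of the 23 genes was 8 and 7, and 9 adjacent ids were called in stalk with either. The cause of these moves was not tested.

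Leaving out replicate 1, 2 or 3 gave 60 to 63 members, 3 to 14 genes on in Hongda and off in Basma (0 to 7 on in HxB), 22 to 25 on in Basma and off in Hongda (10 to 11 on in HxB), 0 to 1 on in Va116 and off in GDH88 (0 to 1 on in VxG88), 11 to 14 on in GDH88 and off in Va116 (2 to 3 on in VxG88) and 9 to 14 members beside another. The F test then called 20 to 39 genes for leaf, 9 to 37 for stalk and 3 to 22 for root, and 3 to 6, 1 to 2 and 1 to 4 adjacent ids. HxB against VxG88 had 2 to 3 leaf calls, 0 to 1 stalk call and 0 to 1 root call among genes on in Basma and off in Hongda, 0 to 1 (leaf), 0 to 1 (stalk) and 0 to 0 (root) among those on in Hongda and off in Basma, and 0 to 0 elsewhere. These fits had 2 libraries a group.

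Deviations of libraries with the same column number had a mean r of 0.355 for leaf, -0.0232 for stalk and 0.128 for root, against -0.177, 0.0122 and -0.06 for different numbers. In leaf, and less so in root, same-numbered libraries thus deviated together on average. Not every pair did (lowest r of -0.314, -0.637 and -0.504), and no label ties the numbers to plants, so they were not treated as pairs. With the replicate block the F test called 57 leaf genes, 35 stalk genes and 30 root genes, and 9, 5 and 9 adjacent ids, HxB against VxG88 had 7, 0 and 5 calls among genes on in Basma and off in Hongda, and no other count moved.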
